A study of Homo sapiens with 4 samples.

Results

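Core autophagy genes were examined in BT474 cells given AICAR, as 47 named members of the machinery and its cargo receptors. The members were chosen by symbol. Each was read from the probe set annotated to that gene alone that had the highest mean over the arrays. All 47 had such a probe set, out of 19775 genes with one on the Affymetrix U133 Plus 2.0 array, and all 47 lay above the bound below which genes were left out as dim (log2 6.11). They were carried by 126 single-gene probe sets.

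BT474 is a cultured line from a human breast tumour that carries extra copies of ERBB2, the HER2 gene. Cells in culture dishes received medium with 0.5 mM AICAR or with vehicle for 24 h, and total RNA was then profiled on 2 arrays per group, 4 in all. AICAR is a nucleoside that cells phosphorylate to ZMP, which resembles AMP and switches on AMPK, a kinase that senses low energy. The data therefore cover 1 line, 1 dose and 1 time. The labels do not say whether the 2 arrays of a group stand for separate cultures, so every p-value here is set against a spread that may be technical. In bulk RNA of this kind, fewer cells with a transcript and less transcript per cell cannot be told apart.

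Autophagy encloses cytoplasm in a double membrane, the autophagosome, and delivers it to the lysosome. The ULK kinase complex starts the process, a class III lipid kinase complex makes the lipid PI3P on the growing membrane, and WIPI proteins bind that lipid. ATG9A and the ATG2 proteins supply membrane lipid. Conjugating enzymes then attach ubiquitin-like ATG8 proteins (the LC3 and GABARAP families) to the membrane, where they hold cargo receptors and their load. AMPK is known to phosphorylate ULK1 and to promote autophagy when energy is low, and much of this control acts on proteins rather than on transcripts.

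The promoter stretches of the 4 members that passed the test are shown because these genes carry the differences described here. Each is the 120 bases before the transcription start, taken from RefSeq on GRCh38.p14 and written 5′ to 3′ on the gene's strand. Among the RefSeq windows, 3027 pairs of a minus-strand and a plus-strand gene share 50 or more bases, and all 3027 matched when minus-strand windows were read as the gene's own strand. Capitals mark TGACG on either strand, the half-site of a cAMP response element, and CACGTG, the E-box core, would be in capitals too. 
WIPI1 (chr17:68457497-68457616, minus strand): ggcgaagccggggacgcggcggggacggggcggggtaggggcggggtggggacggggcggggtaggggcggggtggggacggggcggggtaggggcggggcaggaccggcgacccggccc
OPTN (chr10:13099962-13100081, plus strand): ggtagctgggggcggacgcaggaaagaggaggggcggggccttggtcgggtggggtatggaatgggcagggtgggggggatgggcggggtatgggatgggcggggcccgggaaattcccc
MAP1LC3B (chr16:87392216-87392335, plus strand): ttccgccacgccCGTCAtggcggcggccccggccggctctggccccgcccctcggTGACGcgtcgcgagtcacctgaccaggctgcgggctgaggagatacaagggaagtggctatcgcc
ULK1 (chr12:131894502-131894621, plus strand): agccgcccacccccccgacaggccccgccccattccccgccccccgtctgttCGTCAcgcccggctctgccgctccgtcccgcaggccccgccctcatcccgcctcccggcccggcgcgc

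Between AICAR-treated and vehicle cells, 4 of the 47 members passed the test. WIPI1, the cargo receptor gene OPTN and the ATG8 gene MAP1LC3B rose, and the initiating kinase gene ULK1 fell. The rise of MAP1LC3B held for 1 of its 2 probe sets. Differences are AICAR minus vehicle on the log2 scale, from limma with Benjamini-Hochberg adjustment over all 13842 genes tested, and a gene is said to rise or fall only at an adjusted p under 0.05. The 3 members that rose were 6.38% of the 47, against 4.63% of all genes tested, and the 1 that fell was 2.13%, against 5.19%. Together the 4 were 8.51% of the members, near the 9.82% called among all genes tested. At an unadjusted p under 0.05, 7 members were positive (14.9%, against 12.8% of all genes) and 1 was negative (2.13%, against 13.3%). The median difference of the members was 0.04, beside 0.01 for all genes tested. Positive differences were found in 27 of the 47 (57.4%), against 52.4% of all genes tested.

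**Figure D1:**
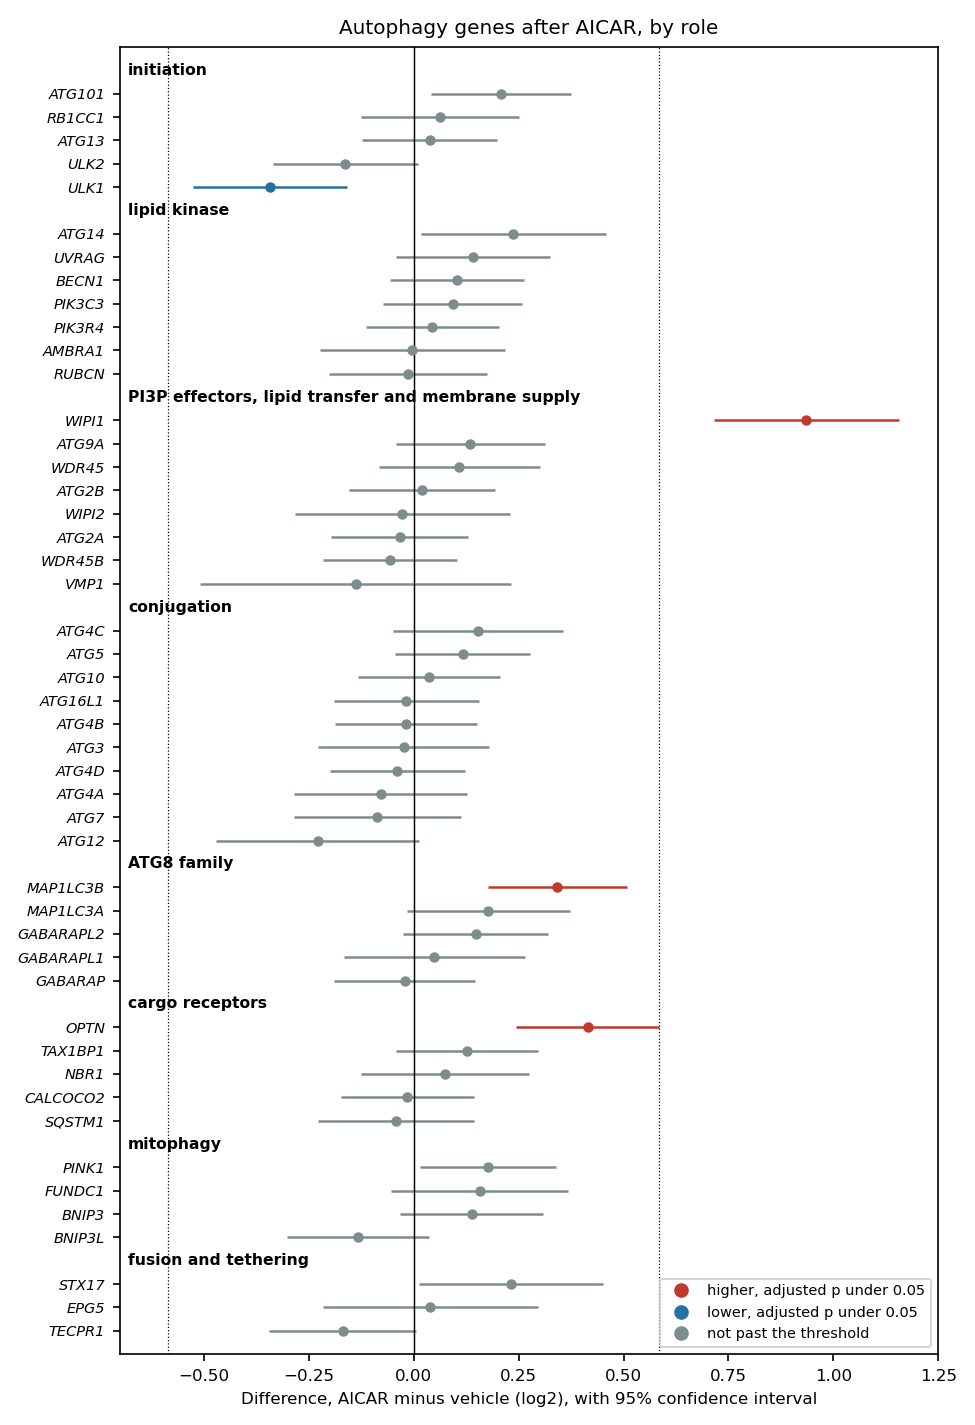
Differences of the 47 members (AICAR minus vehicle, log2) on the horizontal axis, with 95% confidence intervals from limma, grouped by role on the vertical axis. Dotted lines mark 1.5-fold in either direction. WIPI1 stands at 0.94 and is the only member whose whole interval lies beyond 1.5-fold, and the intervals of the 43 members that did not pass the threshold all lie inside those lines.

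All 43 members that did not pass had a 95% confidence interval within 1.5-fold of no change in either direction. That p misses the threshold does not show that these genes stayed level, since the median standard error of a member's difference was 0.0728. In 23 of the 47 members the difference was smaller than 0.1 in either direction. The groups did not overlap in 28 members (59.6%), against 56.6% of all genes tested. Both AICAR arrays lay above both vehicle arrays in 21 members (44.7%), against 28.5% of all genes tested. Both lay below in 7 members (14.9%), against 28.0% of all genes. In the remaining 19 members the groups overlapped.

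WIPI1 encodes a PI3P-binding propeller protein that is recruited to forming autophagosomes. Its arrays read 8.29 and 8.46 with AICAR and 7.52 and 7.36 with vehicle (log2). The lower AICAR array was well above the higher vehicle array. The difference was 0.94 (SE 0.0916, 95% confidence interval 0.72 to 1.16, limma adjusted p = 0.00646), a 1.91-fold higher level. A further probe set of WIPI1, 213836_s_at, read 8.20 and 8.44 with AICAR and 7.49 and 7.04 with vehicle. This probe set has the lower mean, so it does not stand for the gene, and it differed by 1.06. It reads the same RNA on the same arrays and is not a further replicate. In a fit of all 41097 single-gene probe sets, of which 2.29% were called, the 2 probe sets of WIPI1 were the only ones of the 126 to pass (adjusted p = 0.0166 for 203827_at and 0.0321 for 213836_s_at). Fits that left out 1 array have 1 array in that group, whose spread is then taken from the 2 arrays of the other group and limma's moderation across genes. WIPI1 kept its call in each of these fits, with differences of 0.85 to 1.02, whereas in the fit of all probe sets 0 of the 126 passed once any 1 array was left out.

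The 7 other genes of WIPI1's role group did not pass. The 8 genes of PI3P effectors, lipid transfer and membrane supply had 1 rise, 0 falls and a median difference of -0.0033. Among all genes tested 4.63% rose and 5.19% fell. WIPI2, WDR45 and WDR45B are relatives of WIPI1 that also bind PI3P, ATG2A and ATG2B transfer lipid, and ATG9A is the membrane protein of the vesicles that seed the autophagosome. On the probe sets used, these 6 genes differed by -0.06 to 0.14, with a lowest adjusted p of 0.304 (limma). Other probe sets of WIPI2 reached farther, though none passed. Its 5 probe sets ran from -0.03 to 0.28, and in the 3 positive ones the groups did not overlap. The 2 of WDR45 differed by 0.11 and 0.18, and the 4 of ATG2B by -0.09 to 0.03. Of these, the positive probe set 1570033_at of WIPI2 and the high end of ATG2B lay below the dim bound. VMP1, a membrane protein of the endoplasmic reticulum needed for autophagosome formation, read 6.62 and 7.11 with AICAR and 7.03 and 6.98 with vehicle. Its AICAR arrays lay on either side of the vehicle pair, and its difference was -0.14 (95% confidence interval -0.51 to 0.23).

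The array holds 3 further probe sets that the annotation gives to both VMP1 and MIR21, the microRNA gene whose primary transcript overlaps the end of VMP1. These were not counted for either gene. The one called 220990_s_at read 12.99 and 13.07 with AICAR and 13.03 and 13.01 with vehicle. Probe set 224917_at read 11.35 and 11.77 with AICAR and 11.19 and 11.21 with vehicle. The remaining one, 231697_s_at, read 5.59 and 5.82 with AICAR and 5.50 and 5.63 with vehicle. Only in 224917_at did both AICAR arrays exceed both vehicle arrays, and these values were not tested.

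**Figure D2:**
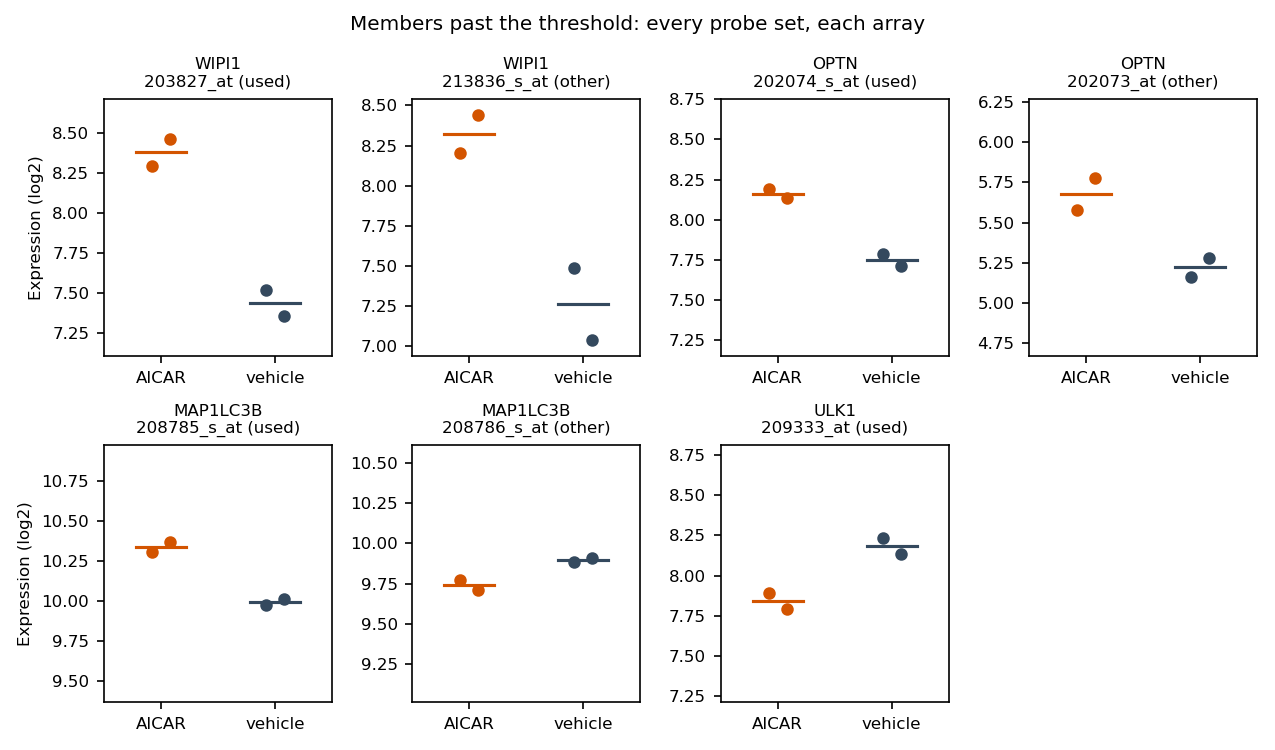
Expression (log2, vertical axis) of every single-gene probe set of WIPI1, OPTN, MAP1LC3B and ULK1, with AICAR left of vehicle. Points are arrays (2 per group), bars are group means, each panel spans the same number of log2 units, and the probe set of highest mean is marked as used. The probe sets of WIPI1 and of OPTN move the same way, whereas those of MAP1LC3B go opposite ways (0.34 and -0.16). The other probe set of OPTN lies below the dim bound.

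ULK1 encodes the initiating kinase of autophagy, a protein that both AMPK and mTORC1 are known to phosphorylate. It read 7.89 and 7.79 with AICAR and 8.23 and 8.13 with vehicle, and all AICAR values were below all vehicle values. The fall of 0.34 on the log2 scale (SE 0.0763, 95% confidence interval -0.53 to -0.16, limma adjusted p = 0.0421) is 1.27-fold. It rests on 1 probe set, and it lost its call in each fit that left out 1 array. The adjusted p was 0.0552 without AICAR replicate 1, 0.111 without AICAR replicate 2, 0.237 without vehicle replicate 1 and 0.130 without vehicle replicate 2, while the difference stayed between -0.39 and -0.29. It also did not pass without the filter on dim genes (0.0826).

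The rest of the initiation complex did not pass, and of its 5 genes ULK1 and ULK2 were negative and 3 were positive. Across the 5 genes, 0 rose and 1 fell, against 4.63% and 5.19% of all genes tested, and the median difference was 0.04. ULK2, the related kinase, read 7.13 and 7.14 with AICAR and 7.35 and 7.24 with vehicle, so its groups did not overlap (difference -0.16, adjusted p = 0.213). Its 4 probe sets were divided, from -0.20 to 0.48, with 2 positive. On the probe set at 0.48 both vehicle arrays (5.73 and 5.58) lay below the dim bound. RB1CC1, known as FIP200, is the scaffold of the complex. It read 10.19 and 10.32 with AICAR and 10.24 and 10.15 with vehicle, and the groups overlapped (difference 0.06, adjusted p = 0.656).

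ATG13 and ATG101 bind each other and bridge the kinase to its scaffold. ATG101 read 10.75 and 10.77 with AICAR and 10.59 and 10.52 with vehicle. Its AICAR values were close together and above both vehicle values, but the difference of 0.21 (95% confidence interval 0.04 to 0.37) did not pass (adjusted p = 0.117). It passed only with a trend and robust variances (0.0282), and its adjusted p was 0.0631 to 0.404 in the other 10 alternative fits. ATG13 read 8.51 and 8.46 with AICAR and 8.44 and 8.46 with vehicle. Its AICAR values cleared the vehicle values only narrowly, at a difference of 0.04 (adjusted p = 0.765).

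**Figure D3:**
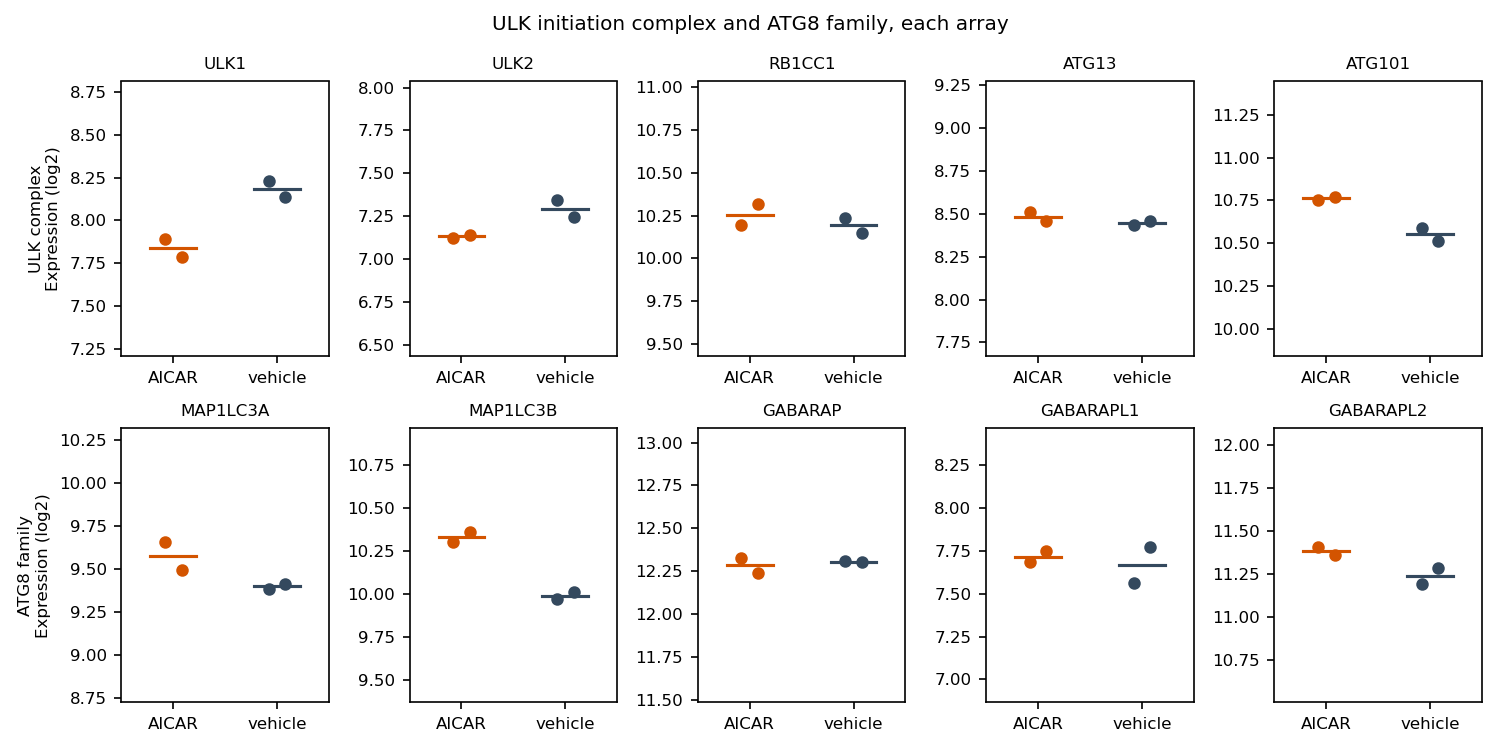
Expression (log2, vertical axis) of the ULK complex genes (upper row) and the ATG8 family (lower row), with AICAR left of vehicle in each panel. Points are arrays (2 per group) and bars are group means, and each panel spans the same number of log2 units. ULK1 is lower and MAP1LC3B higher with AICAR, and GABARAP, which did not pass, reads 12.33 and 12.24 with AICAR and 12.31 and 12.30 with vehicle.

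In the lipid kinase group, which makes PI3P, 0 of 7 members passed (limma), against 9.82% of all genes tested. At an unadjusted p under 0.05 there was 1 (all genes: 12.8% positive and 13.3% negative). Differences were positive in 5 of the 7, with a median of 0.09. ATG14 directs the kinase complex to autophagosome formation. It read 8.41 and 8.62 with AICAR and 8.32 and 8.23 with vehicle, without overlap (difference 0.24, 95% confidence interval 0.02 to 0.46, adjusted p = 0.164). UVRAG takes the place of ATG14 in a separate complex that acts on endosomes. It read 8.02 and 8.15 with AICAR and 7.96 and 7.92 with vehicle, again without overlap (difference 0.14, adjusted p = 0.295). BECN1, the catalytic subunit PIK3C3 and its regulatory subunit PIK3R4 form the shared core, RUBCN is an inhibitor, and AMBRA1 is a regulator of BECN1. On the probe sets used, these 5 genes differed by -0.01 to 0.10, with a lowest adjusted p of 0.373 (limma). Other probe sets reached farther. The 3 of BECN1 ran from -0.04 to 0.26, with 2 positive, and the 7 of PIK3C3 from -0.23 to 0.09, with 3 positive. Those of AMBRA1 ran from -0.14 to 0.22 and those of RUBCN from -0.13 to 0.14. Both ends for AMBRA1 and the low end for BECN1 came from probe sets below the dim bound.

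Of the 10 genes of the conjugation systems 0 passed (limma), and 0 had an unadjusted p under 0.05. Of all genes tested 9.82% passed, and at that unadjusted p 12.8% were positive and 13.3% negative. Negative differences were found in 7 of them, and the group median was -0.02. ATG12 is the ubiquitin-like protein that is joined to ATG5. It read 9.30 and 9.33 with AICAR and 9.41 and 9.68 with vehicle, and both AICAR values were below the vehicle values (difference -0.23, 95% confidence interval -0.47 to 0.01, adjusted p = 0.212). It was -0.094 without vehicle replicate 2 and -0.36 without vehicle replicate 1. ATG4C, a protease that processes ATG8 proteins, read 8.11 and 8.20 with AICAR and 8.08 and 7.92 with vehicle (difference 0.15, adjusted p = 0.304). The remaining 8 genes were the E1-like ATG7, the E2-like ATG3 and ATG10, the proteases ATG4A, ATG4B and ATG4D, and the ligase partners ATG5 and ATG16L1. On the probe sets used they differed by -0.09 to 0.12, with a lowest adjusted p of 0.325 (limma). Over all their probe sets the differences ran from -0.20 (ATG3) to 0.34 (ATG5). The ATG3 probe set at that end lay below the dim bound.

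Of the 5 ATG8 family genes 1 rose and 0 fell, against 4.63% and 5.19% of all genes tested, and the median difference was 0.15. MAP1LC3B encodes LC3B, whose lipid-bound form is the usual marker of autophagosomes. It read 10.30 and 10.36 with AICAR and 9.97 and 10.01 with vehicle, with a difference of 0.34 (SE 0.0686, 95% confidence interval 0.18 to 0.51, limma adjusted p = 0.0313), 1.27-fold higher. The replicates were close and the groups well apart on this probe set, 208785_s_at.

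A second probe set of MAP1LC3B, 208786_s_at, went the other way, with 9.77 and 9.71 with AICAR and 9.88 and 9.91 with vehicle. It differed by -0.16 (adjusted p = 0.391 over all probe sets), and the mean of both probe sets differed by 0.09 and did not pass (adjusted p = 0.393 over all genes). The rise of MAP1LC3B therefore holds for 1 of its 2 probe sets. It was also not called when any 1 array was left out, with an adjusted p of 0.0529 without AICAR replicate 1, 0.0856 without AICAR replicate 2, 0.189 without vehicle replicate 1 and 0.139 without vehicle replicate 2, nor without the filter on dim genes (0.0656). Its close paralog MAP1LC3B2 lay below the dim bound on its own probe set, and whether the MAP1LC3B probe sets also read it was not tested.

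MAP1LC3A, the LC3A gene, read 9.66 and 9.49 with AICAR and 9.39 and 9.41 with vehicle. Its AICAR values were higher without overlap, and the difference of 0.18 did not pass (95% confidence interval -0.02 to 0.37, adjusted p = 0.224). All 3 of its probe sets were positive. The widest, 232011_s_at, was singled out after its values were seen; it read 8.28 and 8.14 with AICAR and 7.61 and 7.78 with vehicle, a difference of 0.52 (adjusted p = 0.0541 over all probe sets).

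The GABARAP branch of the family, known for later steps of autophagosome maturation, had no member past the threshold. GABARAPL2 read 11.41 and 11.36 with AICAR and 11.19 and 11.28 with vehicle (difference 0.15, adjusted p = 0.253). The groups did not overlap, unlike those of the other 2 genes of this branch. GABARAPL1 read 7.69 and 7.75 with AICAR and 7.56 and 7.77 with vehicle (difference 0.05, limma adjusted p = 0.769). Its other probe set, 208869_s_at, differed by -0.09. A probe set annotated to both GABARAPL1 and GABARAPL3, 211458_s_at, was not counted or tested. That shared probe set read 7.93 and 8.02 with AICAR and 8.21 and 8.01 with vehicle. GABARAP read 12.33 and 12.24 with AICAR and 12.31 and 12.30 with vehicle (difference -0.02, 95% confidence interval -0.19 to 0.15, adjusted p = 0.884).

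Cargo receptors bind both ubiquitin-marked cargo and ATG8 proteins. Here 1 of 5 rose and 0 fell, against 4.63% and 5.19% of all genes tested, with a median difference of 0.07. That median was 0.00070 without AICAR replicate 2 and 0.12 without AICAR replicate 1. OPTN encodes optineurin, a receptor for damaged mitochondria and bacteria. It read 8.19 and 8.13 with AICAR and 7.78 and 7.71 with vehicle, with the groups well apart. The difference was 0.41 (SE 0.0703, 95% confidence interval 0.25 to 0.58, limma adjusted p = 0.0212), a 1.33-fold higher level. The other probe set of OPTN, 202073_at, read 5.58 and 5.78 with AICAR and 5.16 and 5.28 with vehicle, all below the dim bound. It differed by 0.46 in the same direction (limma adjusted p = 0.0757 over all probe sets). OPTN kept its call without AICAR replicate 2 (0.0494) and lost it without AICAR replicate 1 (0.0529), without vehicle replicate 1 (0.106) and without vehicle replicate 2 (0.127).

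The receptor TAX1BP1 read 12.15 and 12.13 with AICAR and 12.06 and 11.97 with vehicle (difference 0.13, adjusted p = 0.306). Its AICAR values were above the vehicle values by a small margin, and all 3 of its probe sets were positive. SQSTM1, which encodes p62, differed by -0.04, and with NBR1 and CALCOCO2 (NDP52) made a set of 3 genes at -0.04 to 0.07 with a lowest adjusted p of 0.616. In each of these 3 genes the AICAR and vehicle arrays overlapped on the probe set used, but not on every other probe set. The 5 probe sets of SQSTM1 ran from -0.19 to 0.30, with 2 positive. The 4 of CALCOCO2 ran from -0.08 to 0.19, with 2 positive, and the 4 of NBR1 from -0.42 to 0.07, with 3 positive. The high end of SQSTM1 and the low end of NBR1 came from probe sets below the dim bound.

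Mitophagy receptors and regulators had 0 of 4 members past the threshold (limma), against 9.82% of all genes tested. At an unadjusted p under 0.05 there was 1 (all genes: 12.8% positive and 13.3% negative). The groups did not overlap in any of the 4, against 56.6% of all genes tested without overlap. PINK1, the kinase that marks depolarised mitochondria, read 9.23 and 9.24 with AICAR and 9.09 and 9.03 with vehicle (difference 0.18, 95% confidence interval 0.01 to 0.34, adjusted p = 0.161). FUNDC1, a receptor of the outer mitochondrial membrane, read 10.03 and 10.14 with AICAR and 9.84 and 10.02 with vehicle (difference 0.16, adjusted p = 0.310). The related receptors BNIP3 and BNIP3L, both known as hypoxia-induced genes, had opposite signs, at 0.14 for BNIP3 and -0.13 for BNIP3L.

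Among genes of autophagosome fusion and tethering, 0 of 3 passed (limma), against 9.82% of all genes tested. At an unadjusted p under 0.05 there was 1 (all genes: 12.8% positive and 13.3% negative). STX17, the SNARE of the closed autophagosome, read 9.00 and 9.05 with AICAR and 8.90 and 8.68 with vehicle (difference 0.23, adjusted p = 0.171). The AICAR values were higher on the probe set of highest mean, but only 2 of its 5 probe sets were positive, with a range of -0.24 to 0.23. TECPR1, a tethering protein, read 7.89 and 7.82 with AICAR and 7.98 and 8.07 with vehicle (difference -0.17, adjusted p = 0.204). Each of its 3 probe sets gave a negative difference. EPG5, a tether to lysosomes, differed by 0.04.

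**Figure D4:**
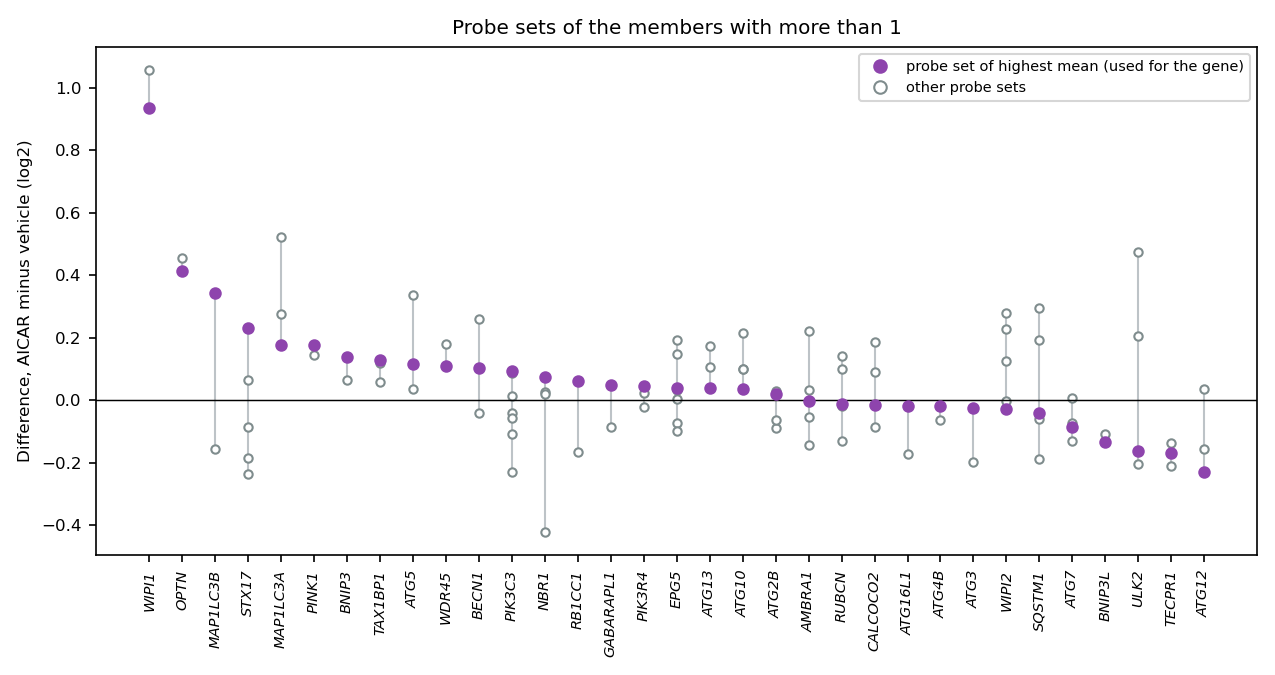
Differences (AICAR minus vehicle, log2, vertical axis) of every single-gene probe set of the 33 members that have more than 1, ordered by the probe set used for the gene. Filled points are the probe sets of highest mean and open points the others. The probe sets of 15 of the 33 members share 1 sign, and the range over all 126 probe sets is -0.42 to 1.06.

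How far a member's row depends on the probe set was described over all members. Of the 33 members with more than 1 probe set, 15 had all of them on the same side of no change, WIPI1, OPTN, MAP1LC3A, PINK1 and TECPR1 among them. The lowest of the 126 differences was -0.42, for a probe set of NBR1 below the dim bound (1568857_a_at, 4.52 and 4.71 with AICAR and 5.18 and 4.89 with vehicle). The probe set used for NBR1 differed by 0.07.

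Promoter windows of the members were searched on both strands, from 250 bases before to 50 after the start, in RefSeq's GRCh38.p14 table, which held 48 windows of 38 members. The E-box core CACGTG, which transcription factors of the TFEB family and others bind, was in 3 of the 48 windows (6.25%) and in 7.26% of all 35116 windows. Its extension TCACGTG, with the flanking T of the elements that TFEB is known to bind and which always overlaps CACGTG, was in 2 windows (4.17%) and in 3.71% of all windows. The half-site TGACG was in 17 windows (35.4%) and in 24.6% of all windows. The table pools coding and non-coding genes, and these shares are descriptions with no test.

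The E-box matches lay in ATG3, ATG14 and BNIP3, none of which passed the test, and are shown as 30-base stretches because no called member has one in its window. Capitals mark CACGTG, and the stretches are written on the gene's strand. 
ATG3 (chr3:112561952-112561981, minus strand): tCACGTGccgggagagtctagtgtCACGTG
ATG14 (chr14:55411834-55411863, minus strand): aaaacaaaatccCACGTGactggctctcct
BNIP3 (chr10:131982040-131982069, minus strand): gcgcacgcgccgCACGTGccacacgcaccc

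ATG3 holds the core at bases -18 and 6 from the start, ATG14 at -21 and BNIP3 at -134. Of the called members, MAP1LC3B and OPTN each had 2 matches to TGACG, ULK1 had 1 and WIPI1 had 0. Those of MAP1LC3B began at -108 and -65 and that of ULK1 at -68, as capitalised in the sequences given before the results, and those of OPTN lay farther out, at -194 and -186.

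Other genes of the pathway were read from the same fit in 4 lists. Of 11 genes of fusion and the HOPS tethering complex 0 passed (limma; 1 at an unadjusted p under 0.05), with a median of 0.04, and the widest difference was that of VPS33A, a HOPS subunit (-0.27, adjusted p = 0.0736). Of 12 other selective receptors and adaptors tested 0 passed (limma; 4 at an unadjusted p under 0.05, 2 of them positive), with a median of -0.03. Among all genes tested 9.82% passed, and 12.8% were positive and 13.3% negative at that unadjusted p. The reticulum receptor gene RETREG1 came closest at 0.29 (adjusted p = 0.0517), with 7.46 and 7.47 with AICAR and 7.22 and 7.13 with vehicle.

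Of 14 other core genes and regulators 0 rose and 1 fell, against 4.63% and 5.19% of all genes tested, with a median of 0.07. The gene that fell was EP300, an acetyltransferase that is known to acetylate autophagy proteins and to restrain autophagy. It read 8.73 and 8.80 with AICAR and 9.15 and 9.11 with vehicle, without overlap (difference -0.36, SE 0.0695, limma adjusted p = 0.0277, 1.29-fold lower). EP300 lost its call in each fit that left out 1 array (adjusted p = 0.0716 without AICAR replicate 1, 0.0568 without AICAR replicate 2, 0.175 without vehicle replicate 1 and 0.124 without vehicle replicate 2), while the difference stayed between -0.40 and -0.33. Averaging its probe sets also ended the call (0.0915).

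Of 11 transcription factors known to act on autophagy genes, 0 rose and 1 fell, with a median of -0.10. Across all genes tested 4.63% rose and 5.19% fell. The gene that fell was ATF4, the effector of the integrated stress response. It read 12.79 and 12.71 with AICAR and 13.16 and 13.18 with vehicle (difference -0.42, SE 0.0697, limma adjusted p = 0.0201, 1.34-fold lower), well apart. ATF4 kept its call without AICAR replicate 1 (0.0337) and lost it without AICAR replicate 2 (0.0584), without vehicle replicate 1 (0.124) and without vehicle replicate 2 (0.115). TFEB, the factor best known for autophagy and lysosome genes, differed by 0.10 (95% confidence interval -0.12 to 0.32, adjusted p = 0.534) and its relative TFE3 by -0.0060 (adjusted p = 0.971), and in both the groups overlapped.

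The arrays themselves were alike. Their medians ranged from 6.37 to 6.40 (log2), and across probe sets, which are not independent, r was 0.997 within either group and 0.994 to 0.995 between an AICAR and a vehicle array. All 9 luminal and HER2 amplicon markers, ERBB2, ESR1 and EPCAM among them, were above the dim bound, at 9.22 to 14.3 over the arrays. Of these, ESR1, the estrogen receptor gene, fell (10.41 and 10.38 with AICAR and 10.74 and 10.67 with vehicle, difference -0.31, limma adjusted p = 0.0411), and the other 8 did not pass. Of 10 markers of stromal, endothelial and blood cells 9 had a probe set and 4 of those were dim. The others were low (DCN, CD3E, VWF and PECAM1 at 5.99 to 7.39) except COL1A1, which read 9.25 and 9.52 with AICAR and 9.95 and 10.1 with vehicle (difference -0.63, adjusted p = 0.0209). It was the 1 of 5 tested markers of other cells that passed, as ESR1 was the 1 of 9 luminal and amplicon markers. Among all genes tested 9.82% passed. The part of COL1A1 in the results was not tested.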

How the data were processed

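Biotin-labelled total RNA was run on Affymetrix arrays, per the labels' protocols. The authors deposited normalized log2 values, 1 per probe set; the submitters' processing notes name Affymetrix Expression Console, while its version, summarization and background correction were not given in the sources used here. Dim probe sets may therefore show compressed differences.

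Of 54675 probe sets, 41097 list 1 gene symbol, 1801 list several and 11777 none; symbols were updated through Entrez IDs with RefSeq's GRCh38.p14 table. The probe set of highest mean stood for each gene. Genes below the 30th percentile of gene means were left out. AICAR and vehicle were compared in R 4.3.3 by limma 3.58.1 (lmFit, then eBayes), two-sided, after a check on simulated data. An exact permutation test of 2 against 2 arrays cannot give a p below 0.333 and was not used. The number of arrays limits the precision.

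The members, role groups and lists were chosen with earlier results of these data known. Values are given for called members, the 2 largest differences of each role group, and all initiation and ATG8 family members; in the other pathway lists, called genes or the largest difference. TFEB, TFE3, SQSTM1, NBR1's dim probe set, BNIP3, BNIP3L and EPG5 were named after their values were seen. Alternatives were other dim filters, quantile normalization, median centring, a trend with robust variances, the mean of a gene's probe sets, all probe sets tested separately, the replicate block, and each array left out.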

Additional observations from a re-analysis of the deposited data

How the results depend on the processing

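WIPI1 passed under all 11 alternative gene-level fits (differences 0.85 to 1.02), OPTN under 8, ULK1 under 6 and MAP1LC3B under 5 of 11, and all 4 kept their sign in each of them. The count of members called was 4, against 2 without the dim filter 1 with all probe sets tested separately, 3 with averaged probe sets, 5 in the fit with trend and robust variances, where ATG101 passed, and 1 to 2 when 1 array was left out. Over all genes the count was 1359, against 723 without the dim filter, 2466 with a trend and robust variances, 762 genes with all probe sets tested separately, and 120 to 985 when 1 array was left out. Quantile normalization turned the split of 641 higher and 718 lower genes to 853 and 624. Of the other pathway lists 2 genes were called, against 1 without the dim filter, 5 with a filter at the 50th percentile, 5 after quantile normalization, 8 with a trend and robust variances, 1 with all probe sets, and 0 to 3 when 1 array was left out. The 2 member probe sets called over all probe sets became 5 with a filter on dim probe sets and 9 with a trend and robust variances, settings chosen after seeing the data, and 0 in each fit without 1 array.

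Medians of some role groups shifted by more than the replicate spread of the median. Initiation (0.04) had 0.074 after quantile normalization and 0.079 with the mean of probe sets, and 0.00090 to 0.027 without 1 array. The lipid kinase median (0.09) was 0.13 after quantile normalization, 0.016 with the mean of probe sets and 0.013 over all probe sets. That of PI3P effectors, lipid transfer and membrane supply (-0.0033) was 0.020 with the 50th percentile filter, 0.033 after quantile normalization, 0.047 with the mean of probe sets, 0.029 over all probe sets and -0.0031 to 0.050 without 1 array. The ATG8 median (0.15) was 0.093 with the mean of probe sets and 0.096 to 0.19 without 1 array. Changes of sign were looked for only in the members named by rule, not in all 47. Of these that did not pass, ULK2 (0.079), RB1CC1 (-0.051), GABARAPL1 (-0.018) and STX17 (-0.043) changed sign with the mean of probe sets. GABARAP did so after quantile normalization (0.013). Members outside that rule, such as SQSTM1 (probe sets from -0.19 to 0.30), also have probe sets of both signs and may change too. Without 1 array the cargo receptor median (0.07) ranged from 0.00070 to 0.12, ATG12 from -0.36 to -0.094, GABARAP from -0.063 to 0.022, GABARAPL1 from -0.055 to 0.15 and VMP1 from -0.39 to 0.11. The cause of these shifts was not tested.

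Replicate numbers are shared between the groups. Across genes, replicate 1 minus replicate 2 with AICAR and the same difference with vehicle had r = -0.0721. The labels do not say whether same-numbered arrays were handled together, and this was not tested. With the replicate block the count of members called stayed 4, and that of all genes was 1163 against 1359.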
